A study of Mus musculus with 20 samples.

Results

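The imprinted gene clusters of mouse chromosomes 7 and 12 were examined as 3 fixed intervals of the mm9 genome build. The first, on chromosome 7 at 149740000-149860000, stands for H19 and Igf2. The second, on chromosome 7 at 150000000-150700000, stands for Kcnq1, Kcnq1ot1 and Cdkn1c, and the last, on chromosome 12 at 110650000-111550000, for Dlk1, Meg3 and Dio3. They measure 120, 700 and 900 kb and are called the H19-Igf2, Kcnq1 and Dlk1-Dio3 intervals below. Every peak with at least 1 bp inside an interval was taken, which gave 3833 of the 4480164 peaks in 10 deposited peak lists. Coverage is the share of a stretch of sequence that lies under peaks of 1 list, and it was followed in 86 consecutive windows of 20 kb.

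The lists come from chromatin immunoprecipitation followed by sequencing of mouse embryonic fibroblasts, primary connective tissue cells, taken from C57BL/6 embryos at E13.5 and grown to passage 4 in 10% FBS. Wild-type cells (WT) were compared with cells of a mutant genotype named SS, whose alleles the labels do not spell out. pRb, for which 5 antibodies are listed, and the histone mark H3K27me3 were assayed in arrested and in asynchronously proliferating cells, whereas Ezh2 was assayed only under serum deprivation. Each combination of antibody, growth state and genotype was represented by 1 library, which leaves every difference below without replicates and without a p-value. The labels name 0.1% FBS for 72 h as the way to cytostasis for all samples, proliferating ones included, but class the arrested pRb cells as confluence arrested and the arrested H3K27me3 and Ezh2 cells as serum deprived. The 10 input libraries were not analysed here, and the fibroblast label could not be checked against marker genes, since the lists hold no expression values.

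Imprinted genes are expressed mainly from the copy inherited from 1 parent, under the control of DNA methylation set down in the germ line. In the H19-Igf2 cluster the maternal copy gives the long noncoding RNA H19 and the paternal copy gives the growth factor Igf2. In the Kcnq1 cluster the paternal noncoding RNA Kcnq1ot1 runs antisense to the potassium channel gene Kcnq1 and silences neighbours such as Cdkn1c, a cyclin-dependent kinase inhibitor. In the Dlk1-Dio3 cluster the paternal copy expresses Dlk1, a Notch-like membrane protein, and Dio3, a thyroid hormone deiodinase, while the maternal copy expresses Meg3 and other noncoding RNAs. H3K27me3 is deposited by Polycomb repressive complex 2, whose catalytic subunit is Ezh2, and marks silent chromatin. pRb is the retinoblastoma tumour suppressor, which represses E2F target genes in arrested cells. In an inbred strain the parental copies carry the same sequence, so a peak here may come from either copy or from both.

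The promoters of the named genes give the sequence context of the clusters, with CG dinucleotides, the sites of DNA methylation, in capitals. A RefSeq table of the GRCm38.p6 assembly held promoters for 5 of the 8 named genes, and each sequence runs 300 bases around the start. It belongs to another build than the peaks, so no peak was placed on it.
Kcnq1ot1: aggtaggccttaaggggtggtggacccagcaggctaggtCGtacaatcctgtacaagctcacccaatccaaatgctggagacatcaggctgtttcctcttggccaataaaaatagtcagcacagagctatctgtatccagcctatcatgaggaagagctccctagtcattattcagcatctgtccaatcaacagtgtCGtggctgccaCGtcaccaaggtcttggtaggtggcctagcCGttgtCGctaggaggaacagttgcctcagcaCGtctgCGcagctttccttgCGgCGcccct
Dlk1: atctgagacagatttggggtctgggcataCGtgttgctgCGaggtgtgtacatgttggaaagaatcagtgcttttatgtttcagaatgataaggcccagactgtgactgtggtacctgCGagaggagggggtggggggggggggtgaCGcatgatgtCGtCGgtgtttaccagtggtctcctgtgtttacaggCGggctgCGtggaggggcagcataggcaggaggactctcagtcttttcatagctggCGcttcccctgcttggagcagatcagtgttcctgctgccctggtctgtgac
Meg3: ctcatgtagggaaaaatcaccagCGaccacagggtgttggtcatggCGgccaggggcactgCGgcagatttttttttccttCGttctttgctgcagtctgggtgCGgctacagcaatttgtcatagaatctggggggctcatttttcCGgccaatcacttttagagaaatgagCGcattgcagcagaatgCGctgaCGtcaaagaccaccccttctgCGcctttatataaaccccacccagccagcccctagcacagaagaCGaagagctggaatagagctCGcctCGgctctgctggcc
Dio3: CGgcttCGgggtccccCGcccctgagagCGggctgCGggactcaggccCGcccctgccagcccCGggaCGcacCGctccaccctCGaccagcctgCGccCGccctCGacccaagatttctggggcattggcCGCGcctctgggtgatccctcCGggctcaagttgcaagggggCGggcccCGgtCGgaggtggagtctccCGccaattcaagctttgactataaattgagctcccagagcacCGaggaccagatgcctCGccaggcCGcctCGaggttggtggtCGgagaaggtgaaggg
These promoters held 9 CG dinucleotides for Kcnq1ot1, 9 for Dlk1, 13 for the first Meg3 start and 25 for Dio3, against a median of 7 over 32851 promoters of the same length. The other Meg3 start had 1, and the 4 Igf2 starts had 2, 14, 24 and 7. The hexamer TGCCGC, bound by the imprint-maintaining zinc finger protein ZFP57 when methylated, was searched on both strands. It occurred in 11.6% of all promoters and had 1 match in the first Meg3 promoter and 1 in an Igf2 promoter. In the RefSeq gene table of that assembly, a run of 103 genes lay from Dlk1 to Dio3, of which 61 were miRNA genes, 19 snoRNA genes, 16 long noncoding RNA genes and 3 protein coding, namely Dlk1, Rtl1 and Dio3.

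The 10 lists were of unequal size and texture, which touches every comparison below. They ranged from 77809 to 1184135 peaks, and their mean coverage over 119793 autosomal windows of 20 kb ranged from 0.471% for proliferating WT pRb to 11.8% for proliferating SS H3K27me3. The median peak was 50 bp for WT Ezh2 and 51 bp for SS Ezh2, 145 to 166 bp for pRb, and 723 and 702 bp for H3K27me3 in proliferating WT and SS cells. In arrested cells the median H3K27me3 peak was 138 bp in the WT and 439 bp in the SS list. The depth behind each list is unknown, so each ratio is set beside the ratio of the same lists over autosomal windows.

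H3K27me3 stood out in all 3 clusters, whereas pRb and Ezh2 lay near the autosomal level. In proliferating cells H3K27me3 covered 42.1% of the intervals in WT and 46.4% in SS, which was 4.29 and 3.91 times the autosomal coverage of those lists. In arrested cells it covered 15.9% in WT and 25.0% in SS, or 2.06 and 3.75 times the autosomal coverage. The H19-Igf2 interval had the highest H3K27me3 coverage relative to the autosomes and the Dlk1-Dio3 interval the lowest in each of the 4 H3K27me3 lists. Arrested pRb covered 3.16% in WT and 5.60% in SS, which was 0.999 and 0.996 times the autosomal level. Proliferating pRb covered 0.589% and 0.679%, or 1.25 and 1.06 times, and Ezh2 3.25% and 4.82%, or 0.986 and 0.951 times.

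**Figure D1:**
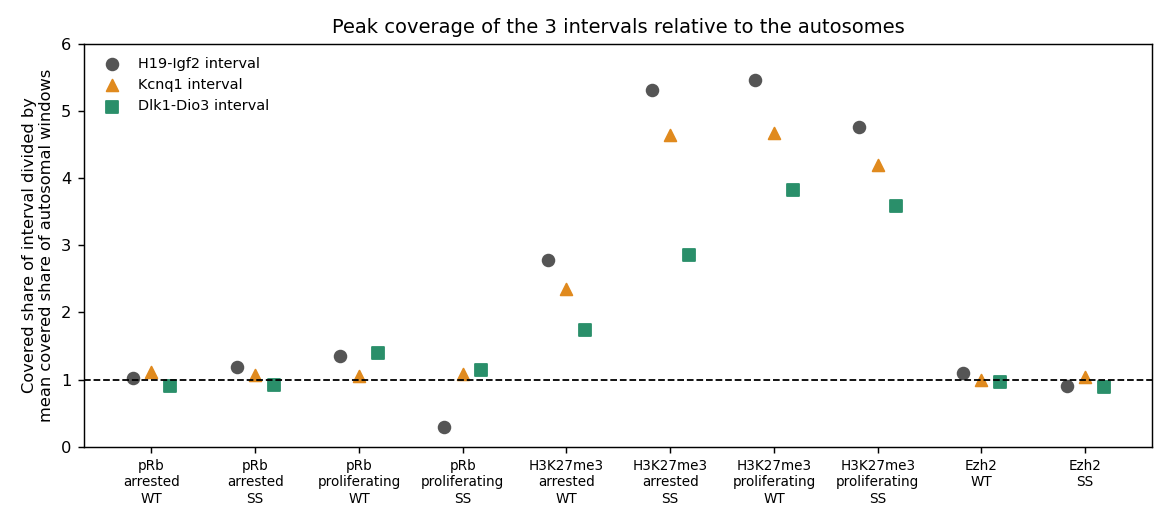
Coverage of each interval divided by the mean coverage of autosomal 20 kb windows (vertical axis, a ratio with no unit) for the 10 peak lists (horizontal axis), 1 point per interval and list. The H3K27me3 lists lie between 1.74 and 5.46, while the pRb and Ezh2 points lie between 0.894 and 1.39 apart from proliferating SS pRb in the H19-Igf2 interval at 0.295.

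In proliferating cells H3K27me3 formed long blocks at mostly overlapping positions in both genotypes. Of the 86 windows, 36 were covered to at least 50% in both proliferating lists, a share of 41.9% against 6.43% of autosomal windows. These rich windows were spread as 3 in the H19-Igf2, 18 in the Kcnq1 and 15 in the Dlk1-Dio3 interval. Another 15 windows were covered to under 10% in both lists, a share of 17.4% against 71.3% of autosomal windows, and 0 of these poor windows lay in the H19-Igf2 interval. The rank order of the 86 windows was nearly the same in WT and SS, with a Spearman rho of 0.969, against 0.865 over autosomal windows. It describes neighbouring windows and carries no test. Blocks below are runs of windows rich in both lists, so their shared positions are built in. In each list alone, the Kcnq1 blocks at 150080001-150180000 and 150280001-150380000 were the same. The central Dlk1-Dio3 block measured 60 kb in WT and 100 kb in SS, and the end block 100 and 140 kb. A block at 111190001-111230000 was in SS only.

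In the H19-Igf2 interval, H3K27me3 of proliferating cells covered 53.6% in WT and 56.4% in SS. From the first window to the last, WT coverage was 29.9, 48.9, 55.2, 62.0, 47.8 and 77.8%. The SS values in the same order were 23.5, 42.4, 69.7, 68.4, 56.9 and 77.6%. Both lists were thus lowest in the first window and highest in the last, at 149840001-149860000. That end of the interval held the longest peak of each list, 17986 bp at 149835607-149853592 in WT and 19723 bp at 149833326-149853048 in SS. Each was also the peak of highest authors' score in the interval, with rank 485 of 143252 peaks in WT and 674 of 168793 in SS.

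The Kcnq1 interval, in which the noncoding Kcnq1ot1 acts on its neighbours, alternated between blocks and gaps. Blocks of adjacent rich windows lay on chromosome 7 at 150080001-150180000, 150280001-150380000, 150500001-150540000 and 150600001-150700000. Proliferating H3K27me3 covered the first of these to 81.2% in WT and 87.2% in SS and the last to 77.3% and 85.4%. The gap at 150180001-150260000 was covered to 2.27% in WT and 2.00% in SS, and 3 of its windows, from 150200001 to 150260000, had no peak in either proliferating list. Another gap at 150420001-150480000 was covered to 1.82% and 0.258%. The change from 90.8% or more to 9.08% or less between adjoining windows at 150180000 was seen in both lists. The longest peaks were 22342 bp in WT, at 150614155-150636496, and 41095 bp in SS, at 150650242-150691336, and the SS window at 150660001-150680000 was covered to 100%.

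The Dlk1-Dio3 interval had its densest H3K27me3 at the far end. The block on chromosome 12 at 111450001-111550000 was covered to 85.4% in WT and 92.6% in SS, and the window at 111410001-111430000 to 100% in both. The longest interval peaks of either genotype lay in that block, 28290 bp at 111504931-111533220 in WT and 55768 bp at 111487543-111543310 in SS. A central block at 110990001-111050000 was covered to 75.6% and 74.2%, and a first block at 110690001-110750000 to 58.7% and 67.3%. Between the first and the central block, the gap at 110870001-110970000 was covered to 1.15% in WT and 0.343% in SS. On this build the files name no genes, so it is not stated which block holds which gene.

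**Figure D2:**
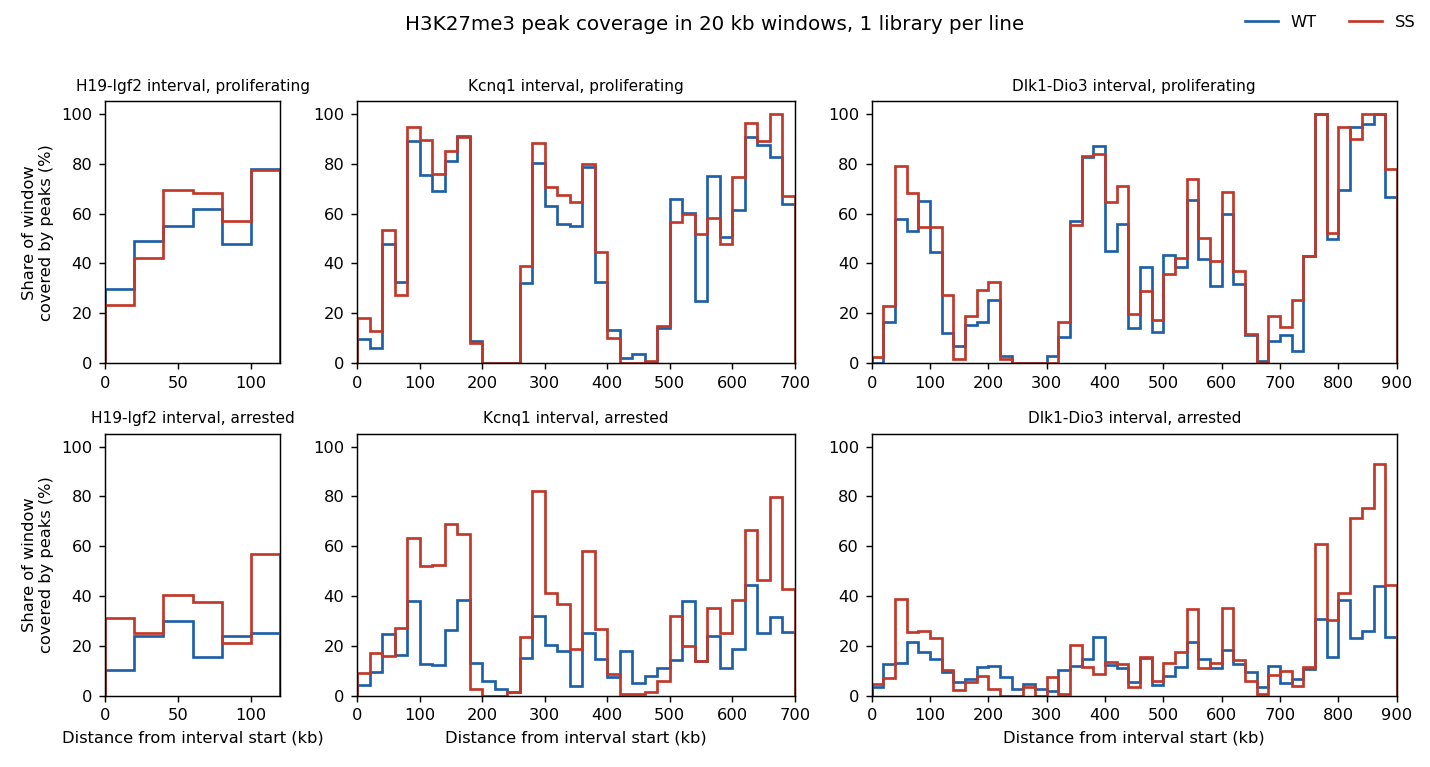
Share of each 20 kb window covered by H3K27me3 peaks (vertical axis, %) against distance from the start of the interval (horizontal axis, kb), proliferating cells above and arrested cells below, with WT in blue and SS in red and 1 library per line. The proliferating lines nearly coincide, reaching 100% near the end of the Dlk1-Dio3 interval, whereas in arrested cells SS exceeds WT over most blocks.

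Between genotypes, proliferating H3K27me3 coverage differed little in the intervals. A window was called higher or lower where the coverage differed by at least 2-fold and at least 1 percentage point. A window covered to over 50% in 1 list could therefore not be called higher in the other. In proliferating WT cells 37 of the 86 windows, or 43.0%, were covered to at least 50%, against 6.78% of autosomal windows. This limit holds down the share called higher in the intervals. SS was higher in 6 of 86 windows, or 6.98%, against 17.3% of autosomal windows, and lower in 4, or 4.65%, against 4.29%. Over the intervals the SS to WT ratio was 1.10 against 1.21 on the autosomes, so relative to the autosomes SS was lower, at 0.913. Of 256 WT peaks, 213 or 83.2% (95% Wilson interval 78.1 to 87.3, counting error only), overlapped an SS peak by 1 bp or more. The same share over autosomal peaks was 68.9%, and SS peaks covered 46.4% of the intervals. The window of largest gain in SS was at 150540001-150560000 in the Kcnq1 interval, from 24.8% to 51.8%, and the largest loss was in the next window, at 150560001-150580000, from 74.9% to 58.4%.

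In arrested cells SS had more H3K27me3 than WT in all 3 clusters, while over the autosomes the full lists gave it less. Coverage was 21.4% in WT and 35.4% in SS in the H19-Igf2 interval, 18.1% and 30.9% in the Kcnq1 interval, and 13.4% and 19.0% in the Dlk1-Dio3 interval. The SS to WT ratios were 1.65, 1.71 and 1.41, and 1.57 over the intervals together, against 0.863 on the autosomes. The autosomal ratio changed side with the setting: with peaks of at least 500 bp alone it was 1.36, beside 2.06 in the intervals, and with the longer list cut by score to equal length it was 2.26, beside 3.50. SS was called higher in 22 of 86 windows, or 25.6%, against 8.01% of autosomal windows. It was called lower in 14 windows, or 16.3%, against 57.9%. Of the 22 higher windows, 3 were in the H19-Igf2, 13 in the Kcnq1 and 6 in the Dlk1-Dio3 interval. The peak texture moved with genotype here as well, and its part in the result was not tested: the median interval peak was 149 bp in arrested WT and 583 bp in arrested SS cells, and 0 and 3 peaks exceeded 10 kb.

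This difference followed the H3K27me3 coverage in proliferating cells, and autosomal windows of like coverage showed similar values. In the 36 rich windows the mean arrested coverage was 23.9% in WT and 45.4% in SS, against 25.8% and 46.1% in 7704 rich autosomal windows, which include those of the intervals. SS exceeded WT in 33 of the 36 windows, with a median difference of 20.9 percentage points, against 92.1% and 19.5 points in the rich autosomal windows. SS was called higher in 17 of the 36, or 47.2%, against 38.1%. In the 15 poor windows the means were 5.78% in WT and 1.72% in SS, against 4.98% and 1.44%, and SS was called lower in 11, or 73.3%, against 73.8%. The 35 windows in between had means of 12.0% and 13.9%. Arrested SS cells thus showed higher coverage within the blocks and lower coverage in the gaps than arrested WT cells. In the gap at 150180001-150260000, for example, arrested coverage was 5.91% in WT and 1.07% in SS.

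**Figure D3:**
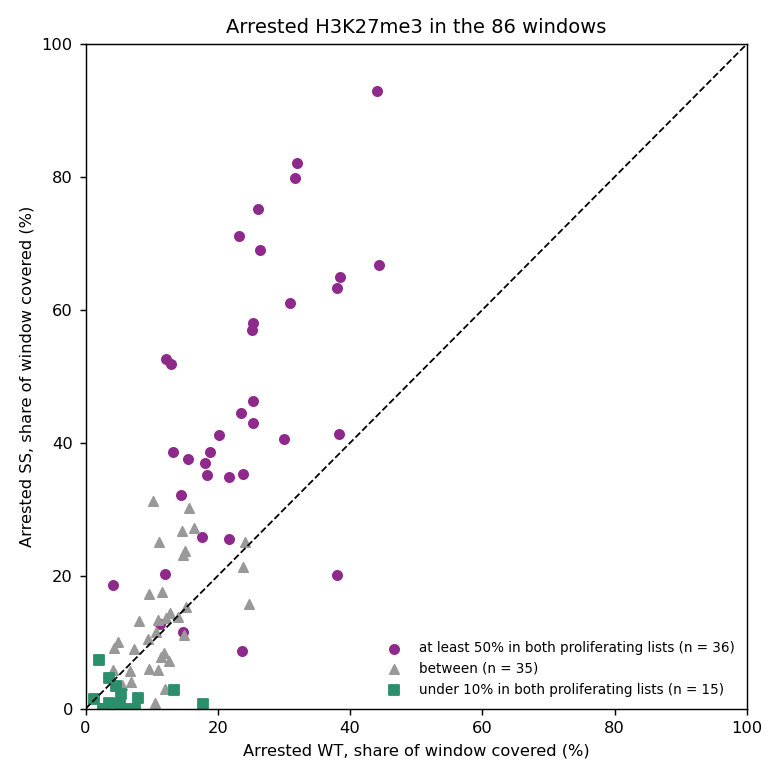
Arrested H3K27me3 coverage of the 86 windows of 20 kb, WT on the horizontal and SS on the vertical axis (both %), 1 point per window, marked by coverage in the proliferating lists, with a dashed line of equal coverage. Of the 36 windows rich in proliferating cells 33 lie above the line, and of the 15 poor ones 3 do.

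The blocks did not all behave alike in arrested SS cells. The end block of the Dlk1-Dio3 interval at 111450001-111550000 had arrested coverage of 31.0% in WT and 65.0% in SS. Its window at 111510001-111530000 had the highest arrested coverage of the interval in both lists, 44.0% in WT and 93.0% in SS, and the SS value exceeded 98.0% of rich autosomal windows. The 3 windows of the central block at 110990001-111050000, also rich in proliferating cells, had arrested coverage of 12.0, 14.7 and 23.7% in WT and of 20.3, 11.6 and 8.64% in SS. The last of them, at 111030001-111050000, was covered to 84.0% in proliferating SS cells, so that its loss in arrest was the largest of the interval. In the arrested SS list 0.688% of rich autosomal windows had lower coverage than it. For its neighbour at 111010001-111030000, covered to 83.1% in proliferating SS cells, the share was 1.18%. In the arrested WT list the shares for the same windows were 50.1% and 14.5%.

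In the Kcnq1 interval the block at 150080001-150180000 had arrested coverage of 25.6% in WT and 60.4% in SS, and the one at 150280001-150380000 to 20.0% and 47.4%. The largest gain in SS was the window at 150280001-150300000, from 32.0% to 82.1%, where an SS peak of 14920 bp lay. The block at 150500001-150540000 was covered alike, to 26.2% in WT and 26.1% in SS, and held the largest loss, from 38.0% to 20.1% at 150520001-150540000. In the H19-Igf2 interval the largest gain was in the last window, from 25.2% to 56.9%. The peak of highest score in arrested WT cells there, 200 bp at 149795913-149796112, had rank 16 of 656342 peaks and a fold enrichment of 30.4 as the authors gave it.

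Arrested WT and SS peaks overlapped in part. Of 668 arrested WT peaks, 277 or 41.5% (37.8 to 45.2) touched an SS peak, against 15.9% of autosomal peaks, with 25.0% of the interval sequence under SS peaks. When a reciprocal overlap of 50% was asked for, the share was 3.59%, beside the median interval peaks of 149 bp in WT and 583 bp in SS.

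H3K27me3 coverage of the clusters was lower in arrested than in proliferating cells in both genotypes, in SS by about as much as on the autosomes. The median fold enrichment of interval peaks went the other way. It was 2.71 in proliferating and 6.23 in arrested WT cells, and 2.78 and 3.37 in SS cells. Over the whole lists it was 2.59 and 5.85 in WT, and 2.62 and 3.24 in SS. The ratio of arrested to proliferating coverage was 0.378 in WT, against 0.786 on the autosomes, and 0.539 in SS, against 0.562. In WT, 55 of 86 windows, or 64.0%, were called lower in arrested cells, against 16% of autosomal windows, and 11, or 12.8%, higher, against 63.7%. The limit on calling densely covered windows higher applies here as well. In SS, 36 windows, or 41.9%, were lower, against 25.1%, and 3, or 3.49%, higher, against 14.8%; with both lists scaled by autosomal coverage the lower share was 15.1%, against 13.6%. In the rich windows, which the proliferating lists define, mean coverage was 73.1% in proliferating and 23.9% in arrested WT cells, and 73.4% and 25.8% in the rich autosomal windows. In SS it was 78.5% and 45.4%, and 77.0% and 46.1% in the rich autosomal windows. Of the 36 lower windows in SS, 28 lay in the Dlk1-Dio3, 7 in the Kcnq1 and 1 in the H19-Igf2 interval. The SS ratio was 0.447 in the Dlk1-Dio3 interval, below the autosomal ratio, and 0.622 and 0.628 in the Kcnq1 and H19-Igf2 intervals, above it. In WT the 3 ratios were 0.358, 0.394 and 0.400, all below the autosomal ratio. The largest loss in WT was on chromosome 12 at 111470001-111490000, from 94.7% to 23.2%. The WT lists compared here differ in median interval peak length, 1138 bp in proliferating and 149 bp in arrested cells, and the SS lists less so, 1296 and 583 bp; the part of this in the ratios was not tested.

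pRb, the repressor of E2F targets, covered the clusters to about the autosomal level and in scattered short peaks. In arrested cells SS coverage was 1.77 times that of WT, against 1.78 times on the autosomes. SS was called higher in 36 windows, or 41.9%, against 45% of autosomal windows, and lower in 4, or 4.65%, against 5.42%. In proliferating cells the ratio was 1.15 against 1.36, with 13 windows higher, or 15.1%, against 15.2%, and 11 lower, or 12.8%, against 7.61%. The largest SS gain in arrested cells was in the Kcnq1 interval at 150600001-150620000, from 2.09% to 13.2%. The next window, at 150620001-150640000, held the largest loss, from 3.48% to 0. Only 1 other window had no arrested SS pRb peak, the one at 111510001-111530000 with the highest arrested H3K27me3 coverage of the Dlk1-Dio3 interval. WT pRb coverage there was 4.20%. Thus 2 of 86 windows, or 2.33%, had no such peak, against 0.644% of autosomal windows. Both were rich windows, which made 2 of 36, or 5.56%, against 0.519% of rich autosomal windows. This contrast rests on 2 windows only. In arrested WT cells it was 2 of 86, or 2.33%, against 3.53%, and 0 of the 36 rich windows, against 1.83%.

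Arrested pRb coverage exceeded proliferating coverage in most windows of the clusters, as on the autosomes. The ratio was 5.37 in WT, against 6.72, and 8.26 in SS, against 8.81. In WT 67 windows, or 77.9%, were higher in arrested cells, against 78.1% of autosomal windows, and 0 were lower, against 0.855%. In SS 78 windows, or 90.7%, were higher, against 92%, and 1 was lower, against 0.28%. These ratios go with list size: the arrested lists held 424588 and 650383 peaks and the proliferating lists 77809 and 106472. With the longer list cut by score to the length of the shorter one, they were 0.800 in WT and 1.14 in SS. The autosomal ratios in that setting were 1.05 and 1.23, so the intervals lay below the autosomes in both genotypes.

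pRb peaks of WT and SS cells rarely lay in the same places, in the clusters as on the autosomes. In arrested cells 43 of 303 WT peaks, or 14.2% (10.7 to 18.6), touched an SS peak, against 11.1% of autosomal peaks. In proliferating cells it was 0 of 67, with a Wilson upper bound of 5.42%, against 1.70%. The Spearman rho between WT and SS over the 86 windows was 0.09 in arrested and -0.23 in proliferating cells, as a description. Mean pRb coverage in arrested SS cells was 5.88% in rich and 5.40% in poor windows, and in arrested WT cells 3.15% and 3.14%. A peak counts as touching another from 1 bp of overlap, so it touches more often than a single base lies in covered sequence. Of arrested WT pRb peaks 22.4% (18.1 to 27.5) touched an arrested WT H3K27me3 peak, beside 15.9% of sequence and 13.7% of autosomal peaks. Of arrested SS pRb peaks it was 31.0% (27.0 to 35.4), beside 25.0% of sequence and 9.27% of autosomal peaks. In proliferating cells 41.8% (30.7 to 53.7) of WT and 50% (39.4 to 60.6) of SS pRb peaks touched H3K27me3 of the same cells, beside 42.1% and 46.4% of sequence. The peaks of highest score differed between genotypes in all 3 intervals. In the Kcnq1 interval they were at 150384006-150384146 in arrested WT, with rank 542 of its list, and at 150388935-150389082 in arrested SS, with rank 534.

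Ezh2, the enzyme that deposits H3K27me3, was called in short peaks, and the 50% rule for blocks could not be met by these lists. The highest window of the intervals was covered to 8.06% in WT and 10.2% in SS. On the autosomes the highest was 39.5% and 41.4%. Mean Ezh2 coverage in serum-deprived WT cells was 3.12% in rich, 3.22% in in-between and 3.62% in poor windows. In SS cells it was 5.15%, 4.81% and 4.08%. In rich and poor autosomal windows it was 3.41% and 3.26% in WT and 5.27% and 5.02% in SS. The standard deviation over the 86 windows was 1.65 points in WT and 1.80 in SS, which describes single windows and not the error of a class mean. The classes ran in opposite orders in WT and SS, with 1 library each and no test. No order of the classes is read from these means. Of 570 WT Ezh2 peaks, 42.1% (38.1 to 46.2) touched a proliferating WT H3K27me3 peak, the same as the 42.1% of interval sequence those peaks cover, and 11.3% of autosomal Ezh2 peaks did. With arrested WT H3K27me3 peaks it was 16.1% (13.3 to 19.4), beside 15.9% of sequence and 11.3% of autosomal peaks. In SS 52.4% (48.9 to 55.9) touched a proliferating H3K27me3 peak, beside 46.4% of sequence and 13.8% of autosomal peaks. With arrested SS H3K27me3 peaks it was 28.5% (25.4 to 31.7), beside 25.0% of sequence and 8.37% of autosomal peaks. As touching takes only 1 bp, a peak touches more often than a single base lies in covered sequence. The share of sequence is therefore too low a baseline for these shares, and no difference between genotypes is read from them.

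SS Ezh2 coverage was 1.48 times that of WT in the intervals, against 1.54 times on the autosomes. SS was called higher in 30 windows, or 34.9%, against 34.9% of autosomal windows, and lower in 5, or 5.81%, against 3.59%. The largest gain was in the Kcnq1 interval at 150380001-150400000, from 1.44% to 10.2%, and the largest loss there was at 150120001-150140000, from 7.66% to 3.53%. Of the WT peaks 9.12% (7.02 to 11.8) touched an SS peak, against 11.5% of autosomal peaks, and the windows had a Spearman rho of -0.02 between genotypes. A short peak in the Kcnq1 interval was the highest-scoring Ezh2 peak there in both genotypes, at 150554301-150554356 in WT and at 150554306-150554366 in SS. It had rank 113 of 840543 peaks in WT and rank 37 of 1184135 in SS, with fold enrichments of 8.98 and 13.1 as the authors gave them. In the Dlk1-Dio3 interval the leading peaks did not coincide, with rank 66 in WT at 111296213-111296262 and rank 7707 in SS at 111253401-111253451.

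**Figure D4:**
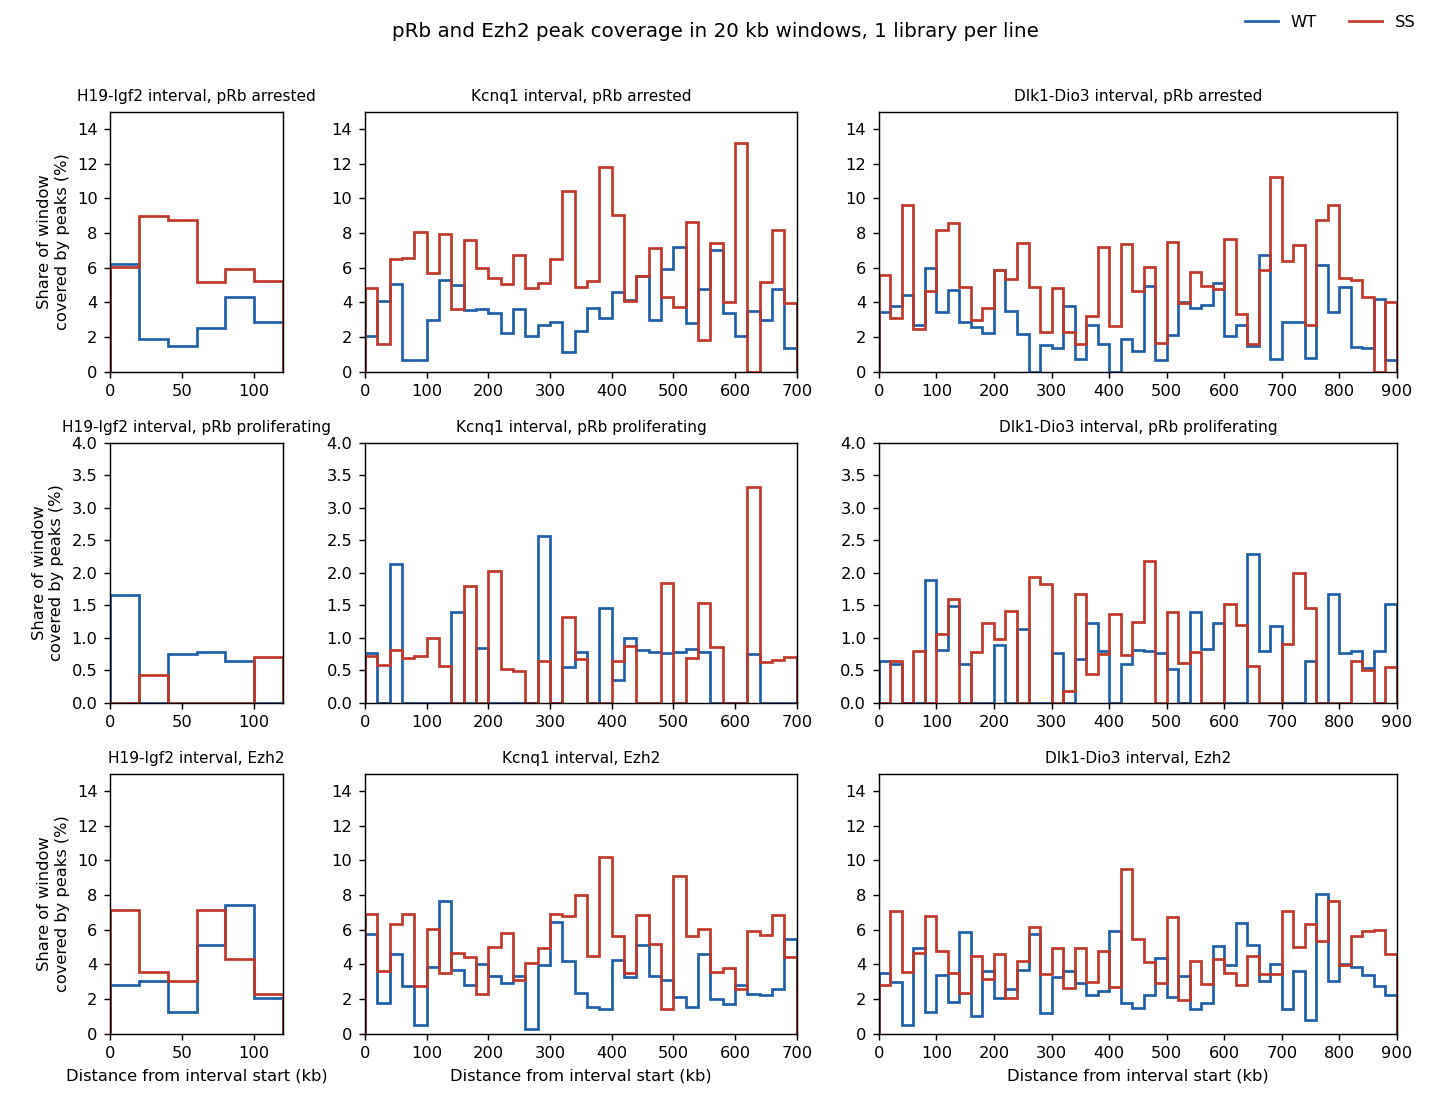
Share of each 20 kb window covered by pRb peaks of arrested and proliferating cells and by Ezh2 peaks (vertical axis, %, scaled to 4% for proliferating pRb and 15% elsewhere) against distance from the start of the interval (kb), with WT in blue and SS in red and 1 library per line. The highest window is that of arrested SS pRb in the Kcnq1 interval at 13.2%. The 50% that defines a block is reached by at most 2 of 119793 autosomal windows in any of these lists.

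Set side by side, the comparisons fell into those that moved with the whole list and those that did not. Over the 3 intervals together, ratios for pRb and Ezh2 lay within 0.799 to 0.997 times the autosomal ratio of the same lists. For H3K27me3 the interval ratio divided by the autosomal ratio was 1.82 for arrested SS against WT and 0.481 for WT arrested against proliferating. It was 0.913 for proliferating SS against WT and 0.959 for SS arrested against proliferating. The comparisons that depart most from the autosomes both include the arrested WT list, whose interval peaks had the shortest median length of the H3K27me3 lists. The part of peak length in these departures was not tested. Autosomal windows of like proliferating coverage showed similar values. Mean arrested coverage of the rich windows was 23.9% in WT and 45.4% in SS, against 25.8% and 46.1% in rich autosomal windows. For proliferating WT cells it was 73.1% against 73.4%, but that list helps define the rich windows, so this likeness is partly built in. Given the arrested values, these departures are not read as particular to the clusters.

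**Figure D5:**
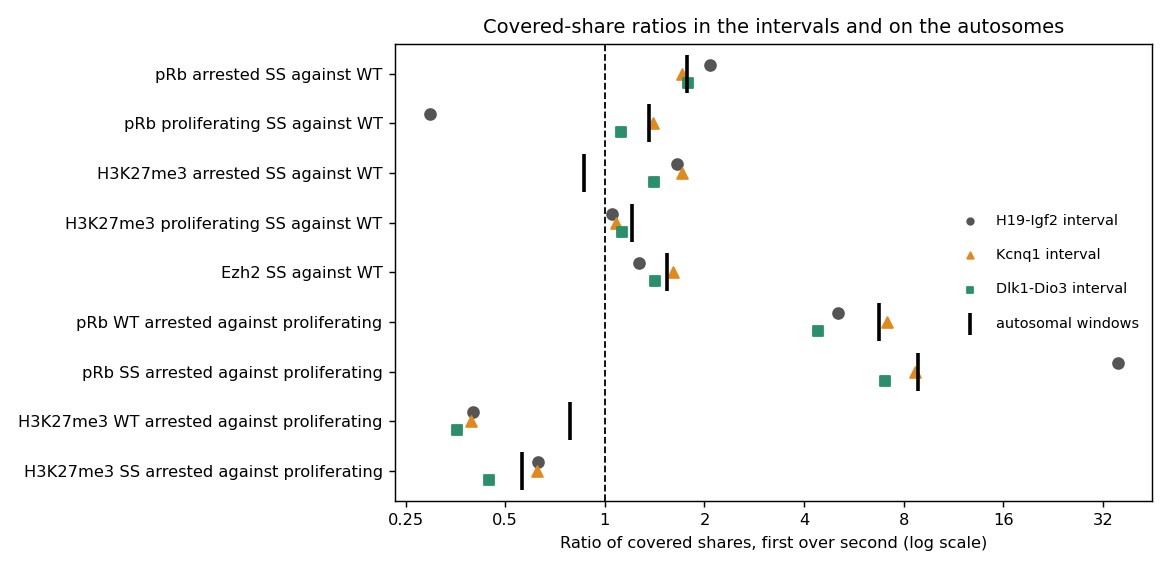
Ratio of coverage between the lists of each of 9 comparisons (horizontal axis, log scale), with 1 point per interval and a black bar for the mean coverage of autosomal windows. For arrested H3K27me3 the 3 intervals lie at 1.41 to 1.71 and the autosomes at 0.863, and the H19-Igf2 point for proliferating pRb, at 0.296, rests on 2 SS and 5 WT peaks.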

How the data were processed

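Chromatin immunoprecipitation sequencing gave 1 deposited peak list for each of 10 libraries of mouse fibroblasts, and groups were taken from the sample titles. Bowtie2, MACS2, HOMER and bedtools and the mm9 build are named per the submitters' processing notes, with roles, versions and settings not given in the sources used here. Each list belongs to 1 library. The 4 pRb lists deposited by the authors hold a score per peak, whose unit is not stated. The other 6 lists deposited by the authors hold a score, a fold enrichment (ratio), a -log10 p-value and a -log10 q-value, and the -log10 q-value ranked their peaks within a list. Read counts and depths are unknown.

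Peaks were clipped to windows of 20 kb from each interval start, and coverage was computed as merged peak length. The background was every full autosomal window of 20 kb with a peak in any list, 119793 windows, those of the intervals included. Windows were called at 2-fold and 1 percentage point (200 bp). Classes were set at 50% and 10% in both proliferating H3K27me3 lists. For each interval the windows of highest coverage, largest gain and largest loss, the longest and highest-scoring peaks and the runs of rich windows were eligible to be named; single windows of a run were picked after their values were seen. Members and lists were chosen with earlier results of these data known. The computation was tested on simulated lists. No test was made, since each group had 1 library, and Wilson 95% intervals cover counting error over peaks only. Positions are in mm9, counted from 1. The RefSeq tables used for gene order and promoters are of GRCm38.p6 and gave no peak a gene. Alternatives were peaks of at least 500 bp, the higher-scoring part of each list, equal list lengths, peaks within 1 kb merged, scaling by autosomal coverage, windows of 10 and 50 kb, windows shifted by 10 kb and a reciprocal overlap of 50%. Work was done in Python 3.11.15 with matplotlib 3.10.9, pandas 2.3.3, numpy 2.4.6 and scipy 1.17.1.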

Additional observations from a re-analysis of the deposited data

Results flagged for a closer look

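In the H19-Igf2 interval the SS to WT ratio of pRb coverage pointed in opposite directions in the growth states, 2.08 in arrested and 0.296 in proliferating cells. The difference was not tested. It rests on 37 SS and 18 WT peaks in arrested cells and on 2 SS and 5 WT peaks in proliferating cells. The autosomal ratios of the same lists were 1.78 and 1.36.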

How the results depend on the processing

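The 9 coverage ratios were recomputed under 5 settings, the shares of called windows under 4 and the overlaps under 3, except that the 500 bp setting gave no value for the 3 ratios and the overlap that use proliferating pRb. A ratio was taken as reversed when it crossed 1, whatever the size of the change, and otherwise as moved when it changed by over 1.5 times. A share of windows was taken as moved beyond 1.5 times, and an overlap when it left its Wilson interval. The cause was not tested. Over the intervals together 9 recomputed ratios were reversed, and in single intervals 23 were. All of these are among the values below. The arrested H3K27me3 ratio of SS to WT, 1.57, stayed above 1 in every setting, from 1.29 with peaks within 1 kb merged to 3.50 at equal list lengths, where the autosomal ratio was 2.26. The ratio of arrested to proliferating WT H3K27me3, 0.378, stayed below 1, with 0.0722 at equal list lengths, against 0.165 on the autosomes. Other values at equal list lengths were 1.04 for arrested pRb (Kcnq1 0.993), 0.883 for proliferating pRb (Dlk1-Dio3 0.847), and for Ezh2 0.850 in H19-Igf2 and 0.975 in Dlk1-Dio3. For arrested against proliferating pRb they were 0.800 in WT (H19-Igf2 0.774, Dlk1-Dio3 0.596) and 1.14 in SS (Dlk1-Dio3 0.845).

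Divided by autosomal coverage, SS to WT ratios were 0.997 for arrested pRb (Kcnq1 0.962), 0.850 for proliferating pRb (Dlk1-Dio3 0.824) and 0.965 for Ezh2 (H19-Igf2 0.823, Dlk1-Dio3 0.922). For proliferating H3K27me3 they were 0.913 over all and 0.872, 0.897 and 0.936 in H19-Igf2, Kcnq1 and Dlk1-Dio3. Arrested against proliferating, they were 0.799 for WT pRb (H19-Igf2 0.751, Dlk1-Dio3 0.653), 0.937 for SS pRb (Kcnq1 0.984, Dlk1-Dio3 0.796) and 0.959 for SS H3K27me3 (H19-Igf2 1.12, Kcnq1 1.11). With peaks of at least 500 bp the SS to WT ratio was 2.87 for arrested pRb and 0.784 for Ezh2 (Dlk1-Dio3 0.939), against 4.34 and 2.88 on the autosomes. Ezh2 in H19-Igf2 was 0.751 in the higher-scoring part of the lists and 0.985 with peaks merged.

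The overlap of WT with SS peaks under a reciprocal 50% was 7.26% for arrested pRb, 3.59% and 30.5% for arrested and proliferating H3K27me3 and 2.28% for Ezh2. In the higher-scoring part it was 4.67% for arrested pRb, 76.5% for proliferating H3K27me3 and 6.04% for Ezh2. With peaks of at least 500 bp arrested pRb (0 of 3) and Ezh2 (0 of 4) gave 0% and arrested H3K27me3 53.9%.

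Window calls are given with the autosomal share of the same setting in brackets. In 10 kb windows, SS against WT, they were 13.4% (12.8%) lower for arrested pRb, 26.7% (24.6%) higher and 23.3% (17.2%) lower for proliferating pRb, 26.7% (59.5%) lower for arrested H3K27me3 and 10.5% (10.1%) lower for Ezh2. For arrested against proliferating they were 5.23% (5.04%) and 3.49% (2.44%) lower for WT and SS pRb and 20.9% (65.2%) and 6.98% (17.9%) higher for WT and SS H3K27me3. In 50 kb windows they were 0% (0.625%) lower for arrested pRb, 2.94% (2.05%) lower for proliferating pRb, 0% (17.8%) higher and 0% (2.61%) lower for proliferating H3K27me3, and 17.6% (25.7%) higher and 0% (0.254%) lower for Ezh2. There, arrested against proliferating, SS pRb was 0% (0.0167%) lower and WT H3K27me3 5.88% (60.5%) higher. Shifted windows gave 3.61% (17.3%) higher for proliferating H3K27me3. After scaling they were 19.8% (21.8%) higher and 12.8% (17.5%) lower for arrested pRb, 2.33% (15.1%) higher for proliferating H3K27me3 and 16.3% (15.4%) higher and 12.8% (12.3%) lower for Ezh2. Scaled calls of arrested against proliferating cells were 33.7% (39.96%) higher and 30.2% (24.2%) lower for WT pRb, and 33.7% (41.3%) higher and 23.3% (22.5%) lower for SS pRb. For SS H3K27me3 they were 12.8% (26.5%) higher and 15.1% (13.6%) lower, beside 41.9% (25.1%) lower unscaled.

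No paired analysis was possible because each group had 1 library. Depth and caller settings limit every ratio and could not be corrected from the lists.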
